A study of Mus musculus with 8 samples.

Results

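Mouse embryonic stem cells (ESCs) kept on the induced F266A mutant of WDR5 were compared with ESCs from which wild-type WDR5 had been withdrawn, that is, F266A +dox minus WT -dox. The 4 arrays were chosen by their titles, 2 arrays for each of the 2 groups, out of 8 arrays in the series. The question is what separates 2 states of partial WDR5 function, the first with the mutant supplied and the second with the wild-type protein no longer supplied. All 8 arrays came from GFP+ V6.5 mouse ESCs infected with lentivirus that constitutively expressed an shRNA against mouse Wdr5 and carried a doxycycline-inducible human WDR5 cDNA, either WT or F266A, together with rtTA, the activator that doxycycline switches on. Cells of each line were grown with 2 µg/mL doxycycline (+dox) or with none (-dox), and total RNA was taken in biological duplicate. Since the 4 groups all carried the shRNA, cells with unperturbed Wdr5 mRNA were not among them. A single line of each kind is described, so the substitution and any other difference between the lines cannot be told apart. F266A +dox and WT -dox differ in the line and in doxycycline at once, the drug itself included.

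WDR5 is an adaptor protein with WD repeats that the MLL and SET1 complexes have in common, and these complexes place methyl groups on lysine 4 of histone H3 at active promoters. With RBBP5, ASH2L and DPY30 it forms the core that stimulates the catalytic subunit, and in ESCs it is known for maintaining the active chromatin of self-renewal genes. The F266 residue belongs to the RNA-binding cleft of the protein, away from the site that holds the histone tail and MLL. ESCs deprived of such support are known to move toward differentiation, so genes of naive pluripotency, of the primed epiblast and of the early lineages were described beside genes of metabolism, stress, adhesion and the cell cycle.

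Expression was measured with Affymetrix mouse expression arrays and is given as log2 values from robust multi-array average (RMA), so a difference of 1 is 2-fold. Of 45101 probe sets, 34945 carried exactly 1 gene symbol. A probe set counted when it exceeded 50 on the linear scale, 5.64 on the log2 scale, in at least 1 of the 8 arrays, and averaging per gene left 11940 genes. Differences are given ± SE from 1 limma fit of all 8 arrays with 2 arrays per group, and a gene was called when its Benjamini-Hochberg adjusted p over all 11940 genes was under 0.05. The median SE of a difference was 0.08. RNA from whole cultures was hybridized, so fewer cells of a type and less RNA per cell cannot be told apart.

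The array medians lay between 5.36 and 5.39 in all 8 arrays. The ESC label was met by the markers shown here, Pou5f1, Sox2 and Dppa5a. Nanog and Zfp42, which also mark ESCs, are given below, and Zfp42 was called lower in F266A +dox. Pou5f1 was 12.89 and 13.06 in WT -dox and 12.87 and 12.84 in F266A +dox, Sox2 was 12.58 and 12.57 against 12.42 and 12.45, and Dppa5a, picked after its value was seen, was 14.24 and 14.23 against 14.27 and 14.28. The control probe sets for 18S ribosomal RNA averaged 11.42 and 11.04 in WT -dox and 10.90 and 10.68 in F266A +dox. They averaged 11.65 and 11.33 in WT +dox and 9.93 and 9.95 in F266A -dox, so within the F266A line they were also lower without doxycycline. The 3' minus 5' difference of the control probe sets of Gapdh was 0.101 to 0.134 in the 4 WT arrays and 0.141 to 0.165 in the 4 F266A arrays, and that of Actb was 0.687 to 0.742 and 0.529 to 0.633. These values moved with the line, while the 3' minus 5' difference of Tfrc overlapped between the lines. It was 2.69 to 3.22 in the WT arrays and 2.96 to 3.22 in the F266A arrays. The part of these controls in the differences below was not tested.

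Wdr5, the gene targeted by the shRNA, fell in F266A +dox against WT -dox. It was 9.45 and 9.35 in WT -dox and 8.59 and 8.56 in F266A +dox, and 8.35 and 8.32 in WT +dox and 9.31 and 9.27 in F266A -dox. The +dox arrays of both lines were thus below the -dox arrays of both lines, with no overlap. The difference was -0.82 ± 0.07 (limma adjusted p = 0.000128), and it was present in both probe sets of the gene, at -0.79 and -0.85. These probe sets belong to the mouse gene, and the human transgene was not measured on its own here, so Wdr5 does not check the labels of the transgene. Of 28 measured subunits and partners of the WDR5 and MLL complexes, Wdr5 was the 1 that was called (1 of 28, against 13.5% of all genes). Rbbp5, Kmt2a and Ash2l were picked after their values were seen. Rbbp5 was 10.41 and 10.39 in WT -dox and 10.40 and 10.40 in F266A +dox, a difference of -0.00 with a 95% interval of -0.14 to 0.14. Kmt2a, which encodes the catalytic subunit MLL1, differed by 0.19 (95% interval 0.01 to 0.38) and Ash2l by -0.18 (-0.36 to 0.00), without a call.

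Between F266A +dox and WT -dox 1611 of 11940 genes (13.5%) were called, of which 1085 were higher (9.09%) and 526 lower (4.41%) in F266A +dox. Most of the larger differences were rises: 82 genes (0.687%) were called with at least a 2-fold difference, of which 74 (0.62%) were higher and 8 (0.067%) lower. Cryab, Septin4, Prss23, Col4a2 and Acta1 stood farthest above WT -dox, and Bnip3, Egln3, Aldoc and Pla2g1b farthest below it. The number of calls depended on each array of the contrast: it was 705 without the first and 921 without the second WT -dox array, and 634 and 870 without the first and second F266A +dox array. In 18 of the 82 genes, among them Septin4 and Wls, at least 1 of the groups compared had a mean under the minimum of 5.64. All 18 were among the 74 higher genes. The size of those differences carries little weight.

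**Figure D1:**
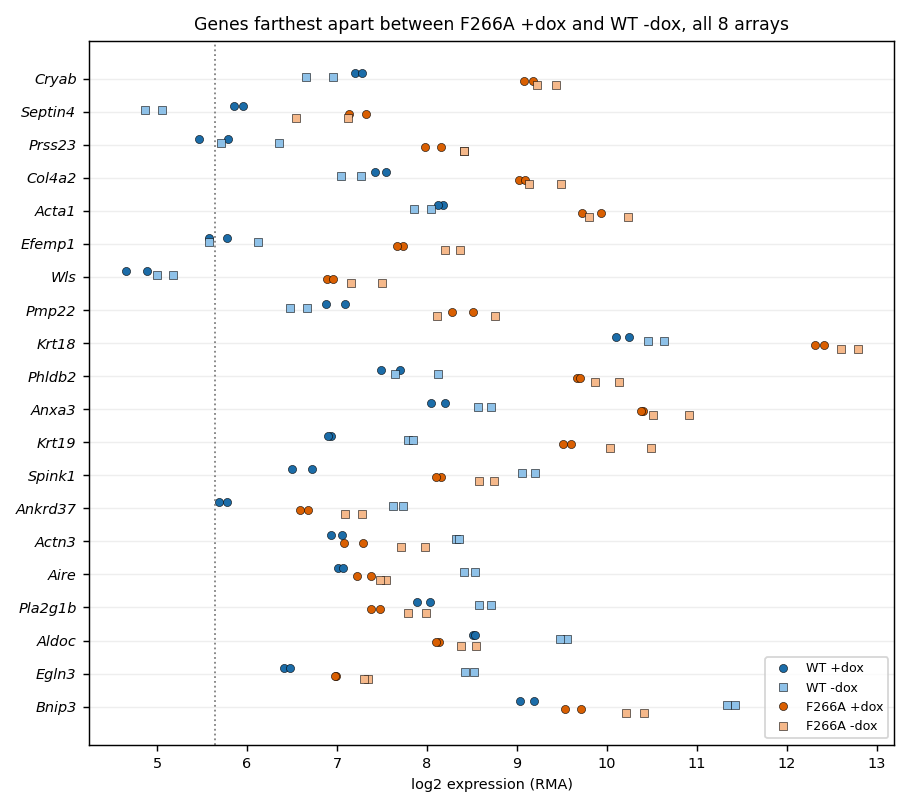
Log2 expression (RMA, horizontal axis) in each of the 8 arrays for the 12 genes with the largest called differences above WT -dox and the 8 below it. Blue marks are the WT line and orange marks the F266A line, circles +dox and squares -dox, and the dotted line is the expression minimum of 5.64. In the upper 12 genes both groups of the F266A line sit to the right of both groups of the WT line, whereas in the lower genes WT -dox lies farthest to the right.

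Targets of HIF and genes of glycolysis were lower in F266A +dox. HIF is the transcription factor that builds up when oxygen is short, and its targets include glycolytic enzymes, proline hydroxylases and mitophagy genes. Of 23 measured HIF targets outside glycolysis, 11 fell and the other 12 were not called (47.8% called, against 13.5% of all genes), with a median difference of -0.24 against -0.0055 over all genes. Of 16 glycolysis genes, 9 fell and the other 7 were not called, with a median of -0.32. With any of the contrast's 4 arrays left out, 9 to 10 HIF targets and 5 to 7 glycolysis genes were called lower. None of 29 respiratory chain subunits was called with limma, with a median of 0.00, although 1 had an unadjusted p under 0.05 and up to 2 were called under other settings of the fit. Cox4i1 (0.16, 95% interval 0.01 to 0.30) and Uqcrc1 (0.15, -0.06 to 0.37) differed most.

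Bnip3, a mitophagy receptor of the outer mitochondrial membrane, had the largest called difference below WT -dox. It was 11.42 and 11.33 in WT -dox and 9.71 and 9.53 in F266A +dox, and it was 9.03 and 9.18 in WT +dox and 10.21 and 10.42 in F266A -dox. WT -dox thus stood above all 6 other arrays. The difference was -1.75 ± 0.10, or 3.37-fold lower (limma adjusted p = 2.63e-05). Egln3, one of the prolyl hydroxylases that mark HIF for destruction and a HIF target itself, was 8.42 and 8.53 in WT -dox and 6.98 and 6.97 in F266A +dox. It fell by 1.49 ± 0.07 (2.82-fold, adjusted p = 1.95e-05). Its other arrays, 6.41 and 6.47 in WT +dox and 7.34 and 7.30 in F266A -dox, were again below WT -dox. Ankrd37, an ankyrin-repeat gene induced by HIF, was 7.73 and 7.62 in WT -dox and 6.68 and 6.58 in F266A +dox, a difference of -1.05 ± 0.08. P4ha1, a prolyl hydroxylase of collagen synthesis, was 8.36 and 8.42 against 7.72 and 7.50, and fell by 0.78 ± 0.09. Vegfa (-0.13, 95% interval -0.28 to 0.03) and Slc2a1 (-0.04, -0.24 to 0.15), chosen here as textbook HIF targets after their values were seen, were not called.

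In glycolysis, Aldoc, the brain-type aldolase, was 9.55 and 9.48 in WT -dox and 8.13 and 8.10 in F266A +dox, with 8.51 and 8.53 in WT +dox and 8.38 and 8.55 in F266A -dox. WT -dox again stood above all 6 other arrays, and the difference was -1.40 ± 0.08 (2.64-fold lower, adjusted p = 2.63e-05). Pfkp, a phosphofructokinase, fell by 0.73 ± 0.09 and Tpi1, triose phosphate isomerase, by 0.63 ± 0.07. Slc16a3, the lactate exporter MCT4, was 6.55 and 6.52 in WT -dox and 5.86 and 5.77 in F266A +dox, and fell by 0.72 ± 0.08. The remaining glycolysis genes that were called are also enzymes of the pathway, among them Pgk1 (-0.45 ± 0.07) and Ldha (-0.43 ± 0.08), which were chosen after their values were seen.

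ACGTG is a form of the core letters that HIF recognises, and the promoters of the HIF and glycolysis lists were searched for this form alone. The windows were the 250 bases before each RefSeq gene start in the mouse assembly GRCm38.p6, read on both strands, and CACGTG holds the core on both strands at once. Of 39 genes tested on the 2 lists, 35 had a window and 24 of these (68.6%) held the core, against 25.1% of all tested genes with a window and 18.5% of all 27025 genes with a window. Among the 19 list members with a window that fell, 12 held it (63.2%), so the letters were no more common in them than in the lists as a whole, which include them. Some genes had several windows. Counted by window, the core stood in 51.9% for the lists, 44.8% for the members that fell and 21.4% for all tested genes. A match describes the letters only and shows no binding. The windows of the 3 HIF targets that fell most are shown because all 3 hold the core, with the core in capitals. They lie on the minus strand, at chr7:138909507-138909756 for Bnip3, chr12:54203875-54204124 for Egln3 and chr8:45999851-46000100 for Ankrd37.
Bnip3: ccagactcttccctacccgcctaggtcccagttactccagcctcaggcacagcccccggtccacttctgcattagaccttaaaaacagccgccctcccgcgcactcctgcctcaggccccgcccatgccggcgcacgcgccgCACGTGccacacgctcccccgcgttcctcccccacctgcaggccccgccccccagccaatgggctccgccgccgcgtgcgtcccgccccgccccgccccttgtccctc
Egln3: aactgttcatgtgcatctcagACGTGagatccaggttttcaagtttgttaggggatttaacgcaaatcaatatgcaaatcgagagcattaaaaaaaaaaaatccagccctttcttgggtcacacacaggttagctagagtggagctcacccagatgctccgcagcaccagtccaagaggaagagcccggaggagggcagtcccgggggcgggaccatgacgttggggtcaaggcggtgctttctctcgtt
Ankrd37: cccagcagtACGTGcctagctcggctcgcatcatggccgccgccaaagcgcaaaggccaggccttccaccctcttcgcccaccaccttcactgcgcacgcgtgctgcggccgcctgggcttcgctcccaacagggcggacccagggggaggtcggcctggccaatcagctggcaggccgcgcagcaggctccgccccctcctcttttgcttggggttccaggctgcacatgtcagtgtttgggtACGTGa
In Bnip3 the core stands as the palindrome CACGTG and starts at -108 relative to the gene start, in Egln3 it starts at -229, and in Ankrd37 it occurs 2 times, at -241 and -6. The windows of Aldoc held no ACGTG.

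**Figure D2:**
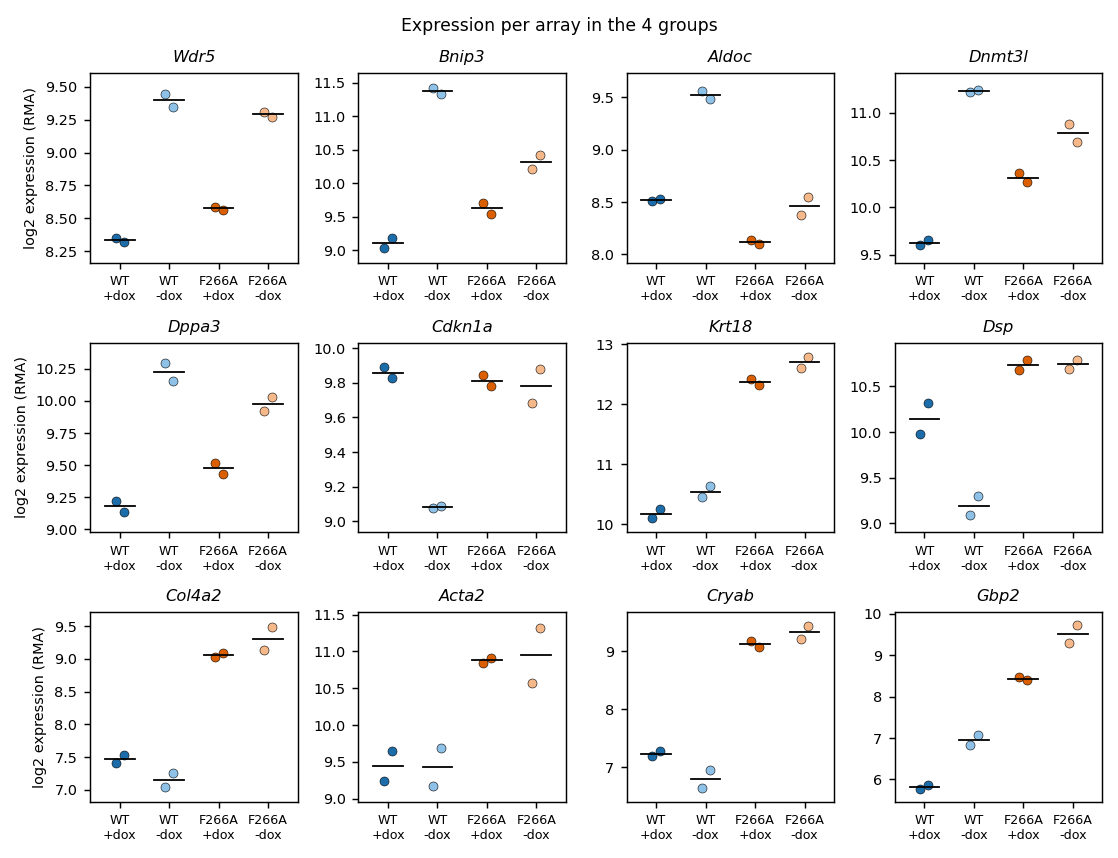
Log2 expression (RMA, vertical axes with separate ranges) of 12 genes, with a point for each of the 8 arrays and a line at each group mean. Bnip3 and Aldoc are highest in WT -dox, Cdkn1a is low in WT -dox alone, Wdr5, Dnmt3l and Dppa3 are lower in the +dox groups, and Krt18, Col4a2, Acta2, Cryab and Gbp2 are higher in both groups of the F266A line.

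The other genes at least 2-fold lower stand on none of the lists. Pla2g1b, a secreted phospholipase, was 8.71 and 8.58 in WT -dox and 7.48 and 7.37 in F266A +dox (-1.22 ± 0.09). Aire, the transcription factor known for self-antigen expression in the thymus, was 8.53 and 8.41 against 7.38 and 7.22 (-1.17 ± 0.08). Actn3, a muscle alpha-actinin, was 8.32 and 8.35 against 7.28 and 7.08 (-1.15 ± 0.10). In each of the 3 genes WT -dox was the highest of the 4 groups, as it was for Spink1, a secreted trypsin inhibitor, which was 9.05 and 9.20 in WT -dox and 8.15 and 8.10 in F266A +dox and fell by 1.00 ± 0.10.

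Several genes of the primed epiblast were also lower in F266A +dox. Of 20 measured genes 8 fell and 2 rose (50% called), with a median of -0.33, and 4 to 5 were called lower and 0 to 1 higher with any array of the contrast left out. These genes mark the state that naive ESCs pass through on their way to the germ layers. Dnmt3l, a cofactor of the de novo DNA methyltransferases, was 11.22 and 11.24 in WT -dox and 10.36 and 10.27 in F266A +dox, and fell by 0.92 ± 0.08 (adjusted p = 0.000165). It was 9.60 and 9.65 in WT +dox and 10.89 and 10.69 in F266A -dox, so that F266A +dox stood between the WT groups. Lef1, a transcription factor of WNT signalling, was 7.08 and 7.55 against 6.44 and 6.46 (-0.86 ± 0.14). Fgf15, a growth factor of the early neural plate, was 7.98 and 8.10 against 7.31 and 7.19 (-0.79 ± 0.13). Zic2, a zinc finger factor of the epiblast and neural plate, differed by -0.60 ± 0.12, a call that was lost without the first WT -dox array or either F266A +dox array (highest adjusted p = 0.0726). Fgf5, the classical marker of the primed epiblast, was 5.49 and 6.24 in WT -dox and 5.31 and 4.86 in F266A +dox. The groups did not overlap, but most of these values were under the minimum, and the difference of -0.78 ± 0.23 was not called (adjusted p = 0.0534). It was called without the first WT -dox array and not without the second, between adjusted p = 0.00916 and 0.286 over the arrays left out. The 2 that rose were Nodal, a TGF-beta ligand (0.33 ± 0.08), and Foxd3, a forkhead factor of the epiblast that was named after its value was seen (0.24 ± 0.07). The call of Nodal was lost without either WT -dox array or the first F266A +dox array (highest adjusted p = 0.18).

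Of 34 genes of naive and core pluripotency, 5 fell and the other 29 were not called, with a median of -0.13. The share called was 14.7%, all of it lower, against 13.5% of all genes called and 4.41% called lower. Dppa3, which protects DNA methylation in the early embryo and marks naive ESCs, was 10.29 and 10.15 in WT -dox and 9.52 and 9.43 in F266A +dox, and fell by 0.75 ± 0.08 (adjusted p = 0.00044). It was the 1 gene of the list still called with any of the contrast's arrays left out. Nr0b1, a nuclear receptor of the ESC network, was 11.21 and 11.21 against 10.86 and 10.84 (-0.36 ± 0.07). Dppa2, a chromatin protein of early embryos (-0.32 ± 0.07), and Eras, an ESC-specific RAS (-0.31 ± 0.08), fell as well, and the calls of Nr0b1, Dppa2 and Eras were lost with each of the 4 arrays left out (highest adjusted p = 0.0698, 0.0895 and 0.149). The fifth was Zfp42, also called Rex1 and named after its value was seen (-0.27 ± 0.07). The central factors were close between the groups. Nanog was 12.28 and 12.39 in WT -dox and 12.35 and 12.37 in F266A +dox, and the difference of 0.03 ± 0.07 had a 95% interval of -0.14 to 0.19. Esrrb was 9.29 and 9.27 against 9.24 and 9.24, with -0.04 and an interval of -0.18 to 0.10. For Pou5f1 the difference was -0.12 (-0.30 to 0.06) and for Sox2 it was -0.14 (-0.32 to 0.04).

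Of the early lineage lists, 5 of 19 ectoderm and neural genes (26.3%), 2 of 12 streak and mesoderm genes (16.7%), 7 of 15 endoderm genes (46.7%) and 5 of 16 trophoblast genes (31.2%) were called, against 13.5% of all genes, while 4 factors named in the study were not. Of these 4, Cdx2, a trophoblast and posterior factor, was 5.65 and 5.33 in WT -dox and 5.33 and 5.66 in F266A +dox, with 0.00 and an interval of -0.36 to 0.37. Mixl1, of the primitive streak, differed by -0.04 (-0.28 to 0.19), Gata6, of primitive endoderm, by -0.01 (-0.26 to 0.25), and Hand1, of trophoblast and mesoderm, by 0.15 (-0.05 to 0.34). Cdx2, Mixl1 and Gata6 lay near or under the minimum, so their level is not shown to exceed background. Nes, an intermediate filament of neural progenitors, was 7.29 and 7.18 against 7.67 and 7.63, and rose by 0.41 ± 0.09 (adjusted p = 0.0139). Its call was lost without the second WT -dox array and without either F266A +dox array (highest adjusted p = 0.0941). Of 19 ectoderm and neural genes 1 rose, which is Nes, and 4 fell (2 to 3 with any array of the contrast left out), among them Gbx2, a homeobox factor of ESCs and the anterior neural plate (7.92 and 8.12 against 7.31 and 7.20, -0.76 ± 0.10), and Tubb3, a neuronal tubulin (-0.52 ± 0.09). Of 12 streak and mesoderm genes 2 rose, Acta2, which encodes smooth muscle actin, and Twist1, a mesenchymal factor (0.39 ± 0.10). Twist1 was 5.26 and 5.09 against 5.63 and 5.50, all under the minimum, which it passed in a single F266A -dox array, and its call was lost without the second WT -dox or either F266A +dox array (highest adjusted p = 0.168). In the endoderm list 6 of 15 rose and 1 fell, 3 of them still called higher with any array of the contrast left out. The members that rose most, Col4a2, Col4a1 and Lrp2, encode collagen IV and an endocytic receptor, while the lineage factors Gata4, Sox17 and Sox7 did not exceed the minimum.

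Keratins and junction genes were the list with the largest share of higher genes. Keratins of simple epithelia are the intermediate filaments that desmosomes anchor, and claudins and occludin seal tight junctions. Of 21 measured genes 14 rose and the other 7 were not called (66.7% called), with a median of 0.51, and 11 to 13 were called higher with any array of the contrast left out. Krt18 was 10.45 and 10.63 in WT -dox and 12.41 and 12.31 in F266A +dox, with 10.10 and 10.25 in WT +dox and 12.60 and 12.79 in F266A -dox. The arrays of the F266A line stood above those of the WT line, and the difference was 1.82 ± 0.09, or 3.53-fold higher (adjusted p = 2.63e-05). Its partner Krt8 was 10.49 and 10.67 against 12.23 and 12.24 (1.65 ± 0.09), and Krt19 was 7.79 and 7.84 against 9.60 and 9.51 (1.74 ± 0.13). Dsp, which encodes the desmosomal plaque protein desmoplakin, was 9.09 and 9.30 in WT -dox and 10.68 and 10.79 in F266A +dox (1.55 ± 0.12). Epcam, an adhesion molecule of ESCs and epithelia, chosen after its value was seen, was 10.77 and 10.64 against 10.64 and 10.77, a difference of 0.00 with an interval of -0.17 to 0.17.

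The highest single difference was that of Cryab, a small heat shock protein that chaperones intermediate filaments and muscle proteins. It was 6.65 and 6.95 in WT -dox and 9.18 and 9.08 in F266A +dox, a rise of 2.33 ± 0.11, or 5.02-fold (adjusted p = 1.95e-05). In F266A -dox it was 9.22 and 9.43, and in WT +dox 7.20 and 7.27, so again the lines did not overlap. Hspb2, the small heat shock gene that lies beside Cryab on chromosome 9, was 6.57 and 6.50 against 7.80 and 7.49 (1.11 ± 0.16) and was named after its value was seen. Of 17 heat shock and chaperone genes, Cryab included, 2 rose and 2 fell, with a median of -0.12, and 1 was called lower with any array of the contrast left out. The share called in this list was 23.5%, against 13.5% of all genes. Hspb1, the other gene of the list that rose, was 13.02 and 13.02 against 13.44 and 13.40 (0.40 ± 0.07), and Xbp1, a factor of the unfolded protein response, fell by 0.42 ± 0.07. Septin4, of the septin cytoskeleton (2.26 ± 0.16), and Prss23, a secreted protease (2.03 ± 0.18), followed Cryab, and Septin4 was under the minimum in both WT -dox arrays.

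Genes of actin filaments, of their partners and of the matrix stood among the higher genes. Acta1, skeletal muscle actin, was 7.85 and 8.04 in WT -dox and 9.93 and 9.73 in F266A +dox (1.88 ± 0.13, adjusted p = 8.41e-05). Of 14 genes of the fibroblast and mesenchymal list 8 rose and the other 6 were not called (57.1% called), with a median of 0.55, and 7 to 8 were called with any array of the contrast left out. Acta2 was 9.17 and 9.69 in WT -dox and 10.84 and 10.92 in F266A +dox (1.45 ± 0.24), Tagln, an actin-bundling protein of smooth muscle, was 10.25 and 10.36 against 11.80 and 11.66 (1.42 ± 0.11), and Anxa1, an annexin, was 9.29 and 9.57 against 10.82 and 10.88 (1.42 ± 0.14). Thbs1, the matrix protein thrombospondin, was 6.03 and 6.24 against 7.46 and 7.34 (1.27 ± 0.08). The remaining genes of the list that rose, picked after their values were seen, were Lgals1, a galectin (0.94 ± 0.09), Cav1, of caveolae (0.87 ± 0.09), Tpm2, a tropomyosin (0.67 ± 0.10), and Col5a1, a fibrillar collagen (0.41 ± 0.09). The list summed to 5842 and 6381 in WT -dox and 12498 and 11946 in F266A +dox on the linear scale. The 7 other members of the list, Col1a1, Col3a1, Col5a2, Thy1, Postn, Lum and Dcn, did not exceed the minimum in any of the 8 arrays. Vim, picked after its value was seen, was 9.27 and 9.21 against 9.27 and 9.05 (-0.08, interval -0.31 to 0.15). In the blood and endothelial list 1 of 8 rose (12.5% called, against 13.5% of all genes). This was Flt1, a VEGF receptor (0.98 ± 0.08, under the minimum in both WT -dox arrays), and 11 others, Ptprc, Cd34 and Cdh5 included, did not exceed the minimum.

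Serum response factor, which drives many actin genes, binds the CArG box, and Acta1 is its classical target, so the 250 bases before its gene start are shown with the box in capitals. The window is chr8:123894776-123895025 on the minus strand of GRCm38.p6 from RefSeq.
Acta1: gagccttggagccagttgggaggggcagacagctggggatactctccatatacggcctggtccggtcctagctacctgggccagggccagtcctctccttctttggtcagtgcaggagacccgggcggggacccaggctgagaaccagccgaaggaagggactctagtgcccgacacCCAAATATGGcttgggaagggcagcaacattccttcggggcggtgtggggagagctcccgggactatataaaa
The box starts at -73 relative to the gene start. A CArG box stood in the windows of 3 of the 57 genes with a window that were at least 2-fold higher (5.26%), namely Acta1, Igf2 and Cited1, which is named for this count, against 1.44% of tested genes, and 0 of 10 genes of the mesenchymal list with a window held it. The AP-1 letters TGANTCA stood in 6 of the 57 (10.5%), against 5.26% of tested genes. These counts are small and are a description of the letters.

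Of 13 basement membrane genes 8 rose and the other 5 were not called (61.5% called, median 0.33), and 4 to 5 were called with any array of the contrast left out. Col4a2 and Col4a1 lie head to head on chromosome 8 and encode the chains of collagen IV. Col4a2 was 7.04 and 7.26 in WT -dox and 9.02 and 9.09 in F266A +dox (1.90 ± 0.12), and Col4a1 was 7.41 and 7.52 against 8.87 and 8.85 (1.40 ± 0.09). Lama5, a laminin chain, differed by 0.53 ± 0.08 and Hspg2, perlecan, by 0.42 ± 0.07, of which the latter was not called on its brightest probe set. Lrp2, the endocytic receptor megalin, was 7.12 and 7.18 against 8.57 and 8.36 (1.31 ± 0.09). Efemp1, a fibulin of the matrix, rose by 1.85 ± 0.15, Wls, which carries WNT ligands out of the cell, by 1.83 ± 0.12, and Pmp22, a tetraspan membrane protein, by 1.82 ± 0.18.

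Targets of p53 were higher in F266A +dox, whereas genes of mitosis and DNA replication held hardly any call (0% and 4.55%, against 13.5% of all genes). Among G1 cyclins and inhibitors 35% were called. Of 22 p53 targets 10 rose and the other 12 were not called (45.5% called), with a median of 0.16, and 7 to 9 were called with any array of the contrast left out. Cdkn1a, the cyclin-dependent kinase inhibitor p21, was 9.08 and 9.09 in WT -dox and 9.84 and 9.78 in F266A +dox, and rose by 0.73 ± 0.08 (adjusted p = 0.000485). It was 9.89 and 9.83 in WT +dox and 9.68 and 9.88 in F266A -dox, so WT -dox stood below all 6 other arrays. Plk2, a kinase induced by stress, was 9.47 and 9.70 against 10.66 and 10.59 (1.04 ± 0.09), Perp, of desmosomes and apoptosis, was 10.04 and 10.26 against 11.17 and 11.12 (0.99 ± 0.09), and Btg2, an antiproliferative immediate early gene, was 8.77 and 8.83 against 9.74 and 9.67 (0.90 ± 0.09). Of 20 G1 cyclins and inhibitors 5 rose and 2 fell, and 2 to 4 were called higher and 1 lower with any array of the contrast left out. Cdkn2b, the inhibitor p15, was 6.31 and 6.48 against 7.37 and 7.43 (1.00 ± 0.09), and Ccnd2, which encodes cyclin D2, was 7.40 and 7.45 against 6.81 and 6.74 (-0.64 ± 0.08). None of 26 mitosis genes was called with limma (median -0.01), although 1 had an unadjusted p under 0.05 and up to 1 was called under other settings of the fit. Kif23 (-0.21, 95% interval -0.43 to 0.01) and Bub1 (-0.20, -0.34 to -0.06), both of mitotic division, differed most. Of 22 DNA replication genes 1 was called, the polymerase gene Pola1 (-0.26 ± 0.07), a call lost with each of the 4 arrays left out (highest adjusted p = 0.253), while up to 5 were called lower under other settings of the fit.

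Signalling targets moved in both directions, except the BMP and ID genes, of which all that were called rose. The share called was 25% for FGF and ERK targets and 29.4% for BMP and ID genes, against 13.5% of all genes. For the NODAL pathway it was 25% and for LIF and STAT3 targets 27.8%. Of 15 WNT targets 2 rose and 4 fell (40% called, median 0.02), and 1 to 2 were called higher and 4 lower with any array of the contrast left out. Sp5, a direct WNT target, was 6.29 and 6.57 in WT -dox and 7.45 and 7.42 in F266A +dox (1.00 ± 0.13), while Lef1 and Ccnd2 fell, as did Myc, the growth factor-responsive transcription factor, which was 8.47 and 8.41 against 7.88 and 7.67 (-0.66 ± 0.10). Of 17 AP-1 and immediate early genes 7 rose and 2 fell (52.9% called, median 0.15), and 4 to 6 were called higher and 0 to 1 lower with any array of the contrast left out. Jun was 6.23 and 6.49 against 7.35 and 7.14 (0.89 ± 0.14) and Atf3, a stress-induced member of the family, was 6.88 and 7.07 against 7.69 and 7.76 (0.75 ± 0.08), whereas Fos, picked after its value was seen, was 7.72 and 7.80 against 7.89 and 7.84 (0.10, interval -0.06 to 0.26). Among 16 FGF and ERK targets 2 rose and 2 fell (1 to 2 each with any array of the contrast left out). Phlda1, a pleckstrin-domain protein, was 8.26 and 8.47 against 9.41 and 9.35 (1.02 ± 0.10), and Spry4, a feedback inhibitor, differed by -0.49 ± 0.09, without a call when the first WT -dox or the first F266A +dox array was left out (highest adjusted p = 0.0689). Of 17 BMP and ID genes 5 rose and the other 12 were not called, and 2 to 4 were called higher with any array of the contrast left out. Dusp9, a phosphatase of ERK maintained by BMP in ESCs, was 9.16 and 9.22 against 9.95 and 9.87 (0.72 ± 0.07), and Id2, an inhibitor of helix-loop-helix factors, was 8.98 and 8.92 against 9.55 and 9.41 (0.53 ± 0.07). Of 16 NODAL pathway genes 2 rose and 2 fell (1 to 2 and 0 to 1 with any array of the contrast left out), with Pmepa1, a SMAD feedback inhibitor, at 0.47 ± 0.07, and of 18 LIF and STAT3 targets 2 rose and 3 fell (1 and 1 to 2 with an array left out), with Socs3 at -0.39 ± 0.07, a call lost without the first WT -dox or the second F266A +dox array (highest adjusted p = 0.0685).

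Guanylate-binding proteins, GTPases known from the interferon response, rose with some genes of antigen presentation. Of 18 genes of the list 7 rose and 1 fell (44.4% called, median 0.17), and 4 to 6 were called higher with any array of the contrast left out. Gbp2 was 6.84 and 7.08 in WT -dox and 8.47 and 8.40 in F266A +dox, with 5.76 and 5.87 in WT +dox and 9.31 and 9.74 in F266A -dox. The groups of the F266A line stood above those of the WT line, and within each line the -dox arrays were higher. The difference was 1.48 ± 0.13 (adjusted p = 0.000191). Gbp2b rose by 1.39 ± 0.17, B2m, the light chain of MHC class I, was 8.08 and 8.34 against 9.18 and 9.15 (0.95 ± 0.10), and Tap1, of the peptide transporter, rose by 0.91 ± 0.14. Oas1a, which synthesises the activator of RNase L and was named after its value was seen, fell by 0.64 ± 0.07.

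Of 21 imprinted genes 8 rose and the other 13 were not called (38.1% called, median 0.14), and 3 to 5 were called with any array of the contrast left out. Igf2, the fetal growth factor expressed from the paternal allele, was 8.75 and 8.85 in WT -dox and 10.56 and 10.41 in F266A +dox (1.69 ± 0.10, adjusted p = 4.31e-05). Sgce, a sarcoglycan, was 5.96 and 6.08 against 7.22 and 7.12 (1.15 ± 0.10), and Peg3, a zinc finger protein, was 7.91 and 7.96 against 8.99 and 8.77 (0.95 ± 0.10). The 2 probe sets of Plagl1 differed by 1.34 and -0.08, so its mean of 0.63 describes neither. Of 16 trophoblast genes 4 rose and 1 fell (3 and 0 to 2 with any array of the contrast left out), and the members that rose most were Igf2, Krt7 (1.42 ± 0.12) and Tfap2a, an AP-2 factor that was under the minimum in both WT -dox arrays (0.66 ± 0.08), while Elf5, Gata3 and Tpbpa did not exceed the minimum.

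Lists of metabolism, stress, translation and the germline differed in their share of calls, which was 13.5% over all genes. It was 32% for the integrated stress response and 47.1% for germline genes. For ribosomal proteins it was 7.41%, for ribosome biogenesis 7.69%, and for synthetases and for NRF2 genes 5.88%, all under that of all genes. Hox genes, with 14.3%, and the mRNAs bound by WDR5, with 10.5%, lay near it. Of 20 cholesterol synthesis genes 6 fell and the other 14 were not called (30% called, median -0.21), and 1 to 2 were called lower with any array of the contrast left out. Insig1, the sterol sensor that holds SREBP in the endoplasmic reticulum, was 9.44 and 9.56 against 8.80 and 8.74 (-0.72 ± 0.08). Of 25 integrated stress response genes 3 rose and 5 fell (1 to 3 and 2 with any array of the contrast left out), with Chac1, which degrades glutathione, at 8.66 and 8.59 against 8.07 and 7.92 (-0.63 ± 0.09) and Slc7a3, a cationic amino acid transporter, at -0.43 ± 0.07. Of 17 aminoacyl-tRNA synthetases 1 fell, Sars, which charges serine tRNA (-0.30 ± 0.08), and of 17 NRF2 and glutathione genes 1 rose, Nqo1, a quinone reductase (0.39 ± 0.11), and both calls were lost with each of the 4 arrays left out (highest adjusted p = 0.184 and 0.232). Of 27 ribosomal protein genes 2 fell, and both are paralogs: Rpl39l was 11.77 and 11.81 in WT -dox and 10.85 and 10.93 in F266A +dox (-0.90 ± 0.06, adjusted p = 8.41e-05), and Rpl22l1 was 12.31 and 12.34 against 11.85 and 11.85 (-0.48 ± 0.08), while their main copies Rpl39 (0.04) and Rpl22 (0.02), picked after their values were seen, were not called. Of 26 ribosome biogenesis genes 2 fell, the helicase gene Ddx21 (-0.34 ± 0.07) and Dkc1, the pseudouridine synthase (-0.28 ± 0.07), and both calls were lost with each of the 4 arrays left out (highest adjusted p = 0.103 and 0.122). Of 17 germline genes 2 rose and 6 fell (0 to 2 and 1 to 2 with any array of the contrast left out), with Tdrd12, of the piRNA pathway, at 9.47 and 9.52 against 8.84 and 8.83 (-0.66 ± 0.06). Of 7 Hox genes over the minimum 1 was called, Hoxd8 (0.46 ± 0.11, under the minimum in both WT -dox arrays and 1 F266A +dox array, lost without either WT -dox array or the first F266A +dox array, highest adjusted p = 0.176), and of 19 mRNAs bound by WDR5 and tied by an earlier screen to pluripotency 1 rose, Folr1, a folate receptor (0.50 ± 0.09), and 1 fell, Myc. That last list was drawn up in the study, and the call of Folr1 was lost without the first WT -dox or the first F266A +dox array (highest adjusted p = 0.0647).

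**Figure D3:**
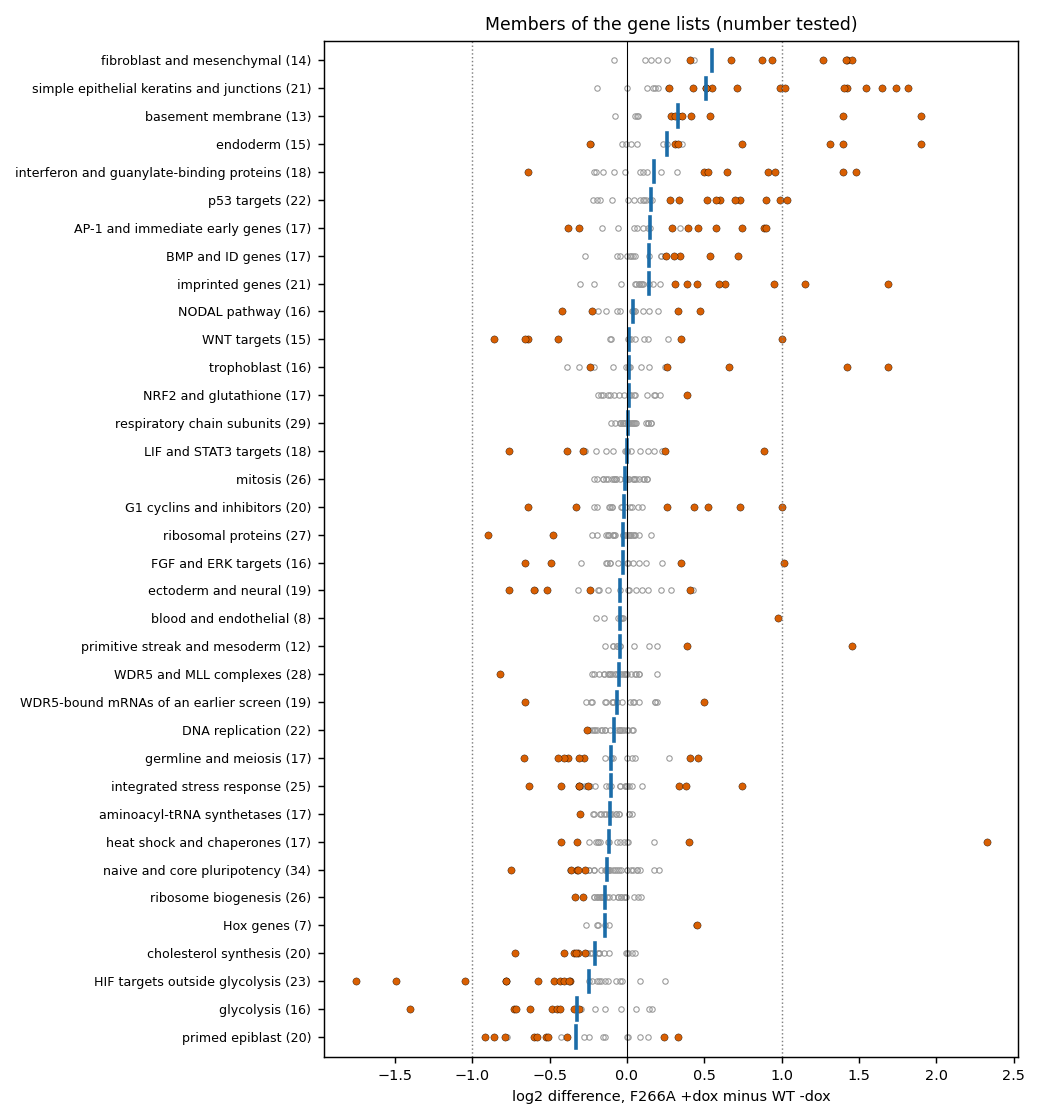
Log2 difference of F266A +dox minus WT -dox (horizontal axis) for each tested gene of the lists (rows, with the number tested). Filled orange points are called genes, open grey points are not, blue bars are medians and dotted lines mark 2-fold. The keratin and mesenchymal lists have the highest medians, 0.51 and 0.55, and the HIF, glycolysis and primed epiblast lists lie to the left with medians of -0.24, -0.32 and -0.33.

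The difference between F266A +dox and WT -dox is the exact sum of a line part (the mean of both F266A groups minus the mean of both WT groups) and a doxycycline part (the mean of both +dox groups minus the mean of both -dox groups). The parts use the 4 arrays of the contrast beside the other 4 arrays, so they describe how a difference was made up and are no separate evidence for it. Over all genes the line part was called in 4709 (39.4%) and the doxycycline part in 4620 (38.7%). Of the 74 genes at least 2-fold higher, the line part was the larger in 70, and the median parts were 1.47 for the line and -0.11 for doxycycline. Of the 8 genes at least 2-fold lower, the doxycycline part was the larger in 6, with medians of -0.29 and -1.09. In all of these 8 but Pla2g1b the doxycycline effect differed between the lines (limma interaction, adjusted p under 0.05). Its mean thus describes neither line in those genes. The interaction uses both groups by which the 8 genes were selected, so these calls are not independent of that selection. Of all 11940 genes tested, 615 had a called interaction. For Egln3 the doxycycline effect was -2.03 in WT and -0.338 in F266A. Among all called genes the line part was the larger in 696 of 1085 higher and 246 of 526 lower genes.

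The gene groups differed in their parts, which are given as a description. In the keratin list the median line part was 0.43 and the median doxycycline part 0.01, and Krt18 had parts of 2.17 and -0.35. In the mesenchymal list they were 1.00 and -0.26, and in the p53 list 0.13 and 0.13, with 0.33 and 0.40 for Cdkn1a. In the HIF list the medians were -0.10 and -0.23 and in glycolysis -0.01 and -0.41, with -0.27 and -1.48 for Bnip3 and -0.73 and -0.67 for Aldoc. In the primed epiblast list the parts opposed each other, with medians of 0.37 and -0.75, and the same was true of Zic2 (0.86 and -1.46), Myc (1.14 and -1.80) and Fgf5 (1.58 and -2.35). Opposed parts also stood behind the small differences of some pluripotency factors. Pou5f1 did not show this, with a doxycycline effect (+dox minus -dox) of 0.08 in F266A and -0.08 in WT. Nanog had a line part of -0.41 and a doxycycline part of 0.44, Esrrb had -0.56 and 0.52 and Klf4, a factor of naive ESCs named after its value was seen, had -0.57 and 0.74, each part called. WT +dox was the highest group for Nanog and Esrrb and F266A -dox the lowest, with 12.70 and 12.70 against 11.92 and 11.78 for Nanog.

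**Figure D4:**
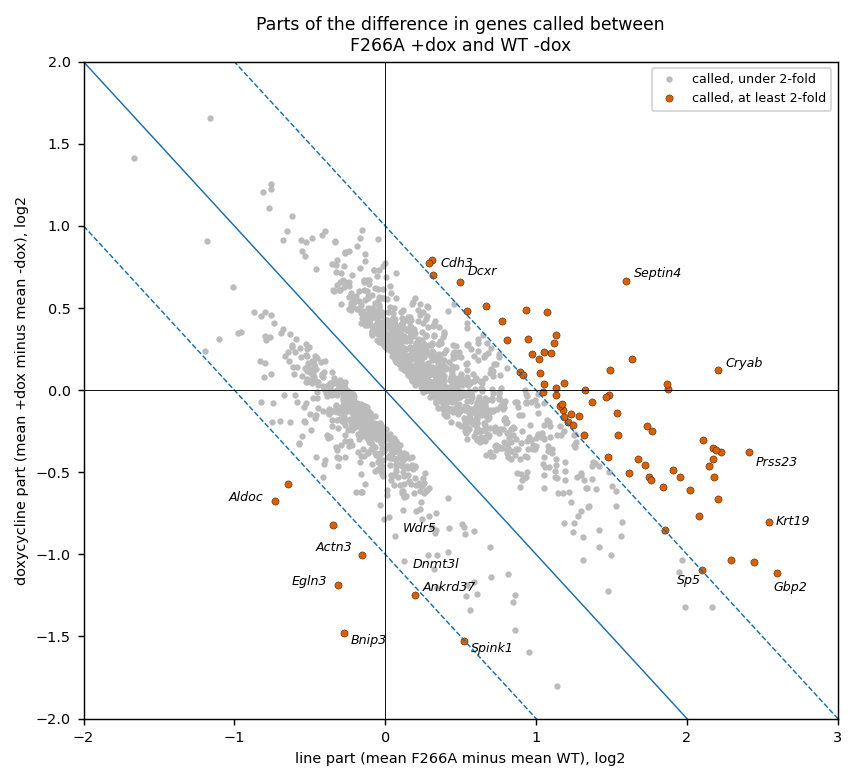
Line part (horizontal axis) and doxycycline part (vertical axis) of the log2 difference for the 1611 called genes, with the 82 at least 2-fold genes in orange. The solid diagonal marks a difference of 0 and the dashed diagonals mark 2-fold in either direction. Most of the 74 higher genes lie far to the right at a doxycycline part near or under 0, and the 8 lower genes lie low on the doxycycline axis.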

How the data were processed

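RNA of 8 cultures was labelled and run on Affymetrix whole-genome mouse arrays. The table deposited by the authors gives log2 intensities of 45101 probe sets. They had summarised them by RMA with justRMA in R 2.11.1, as the labels and the study's methods state. Since RMA gives all arrays the same intensity distribution, a shift of most genes in 1 direction would be missed. The values were not transformed again. Left out were 932 probe sets with several symbols, 9160 with none and 64 controls. The 20046 remaining probe sets that exceeded 50 (linear) in 1 or more arrays were averaged per gene, the study's own filter. Of the 11940 genes, 5061 had more than 1 probe set. Arrays give no read counts, and their small number limits the precision.

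Groups and replicate numbers follow the labels. The labels call the arrays biological duplicates without saying that cultures were separate, so p-values measure only the spread between these samples. One limma 3.58.1 model (R 4.3.3) with a mean for each of the 4 groups used all 8 arrays, with 4 residual and 5.32 prior degrees of freedom. Tests were two-sided, and p-values were adjusted by the Benjamini-Hochberg procedure across the 11940 genes, with a threshold of 0.05. Adjusted p-values in the text come from this model unless another setting is named, and intervals are at 95%. SAM, used in the study, was not run. The script was tested on simulated data. Replicate numbers were not used as a block, because the deviations of arrays with the same number correlated at only -0.176 to 0.165 between groups.

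The members and the 37 gene lists were chosen with earlier results of these data known. The rule for names took the 11 genes named in the study, up to 12 called genes at each end that differed 2-fold or more without overlap, and up to 4 called members of each list (2 members where none was called) by size of difference. Other names are marked as picked after their values were seen, and not all names the rule allows are printed. The lists share genes and had no test of their own. Promoter windows are the 250 bases before RefSeq gene starts on GRCm38.p6.

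Alternatives were dropping the filter on low values, a minimum of 100, 1 probe set per gene (the brightest), probe sets unaveraged, a further quantile normalization, median centring, a fit without the other 4 arrays, the replicate block, a trended robust prior, array weights, gene-wise variances without moderation, leaving out each array in turn and counting only differences of 2-fold or more. A crossed block was chosen after seeing the data.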

Additional observations from a re-analysis of the deposited data

Results flagged for a closer look

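The doxycycline effect (+dox minus -dox) was set between the lines for 31 genes, the 11 genes named in the study, the 12 with the largest called differences above WT -dox and the 8 that were at least 2-fold below it. In 8 of them it differed between F266A and WT by the interaction term of the limma fit, and over all genes 615 interactions were called. Of these 8 genes, 7 belong to the 8 that were at least 2-fold lower in F266A +dox than in WT -dox. WT -dox takes part in both the interaction and that difference, so the 2 values are not independent.

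Egln3 differed most clearly: with doxycycline it fell by 2.03 in WT and by 0.338 in F266A, a difference of 1.69 (adjusted p = 0.000105). The difference was 1.58 for Bnip3 (adjusted p = 0.000833), which was lower with doxycycline by -2.27 in WT and -0.692 in F266A, and 1.40 for Ankrd37 (adjusted p = 0.000833). It was 1.98 for Spink1 (adjusted p = 0.000215), 1.22 for Aire (adjusted p = 0.00113), 0.69 for Actn3 (adjusted p = 0.0315) and 0.65 for Aldoc (adjusted p = 0.0112). In these 7 genes the effect of doxycycline was negative in both lines and smaller in size in F266A. Mixl1 went the other way, with -0.110 in WT, -0.742 in F266A and a difference of -0.63 (adjusted p = 0.0436), and its values in WT lay near the expression minimum.

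Probe sets without a single gene symbol took no part in the report. Of 2377 over the minimum, 59 (2.48%) were called between F266A +dox and WT -dox when fitted on their own, 41 higher and 18 lower, and 10 of them reached 2-fold, 9 higher and 1 lower. Groups of 2 arrays are too small for a search for single outlying arrays.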

How the results depend on the processing

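The number of genes called in F266A +dox minus WT -dox was 1611, and it ranged from 634 to 1738 with each of the 8 arrays left out, and was 412 with an unmoderated variance, 1059 with no expression filter and 82 with the 2-fold threshold. Other settings gave 1401 to 2180. The 2-fold count of 82 was 52 with no filter, 143 with each probe set taken separately and 75 to 105 with an array left out. The line part (4709) and the doxycycline part (4620) stayed within 1.5 times of these counts under the settings run, except 193 and 77 with the 2-fold threshold. With an array left out they were 3830 to 4402 and 3633 to 4241.

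With the replicate number as a block 1401 genes were called, of which 1359 were shared with the 1611, and none of the 4 counts above moved by 1.5 times. The numbers do not pair the arrays by their deviations, which correlated at 0.129 and 0.165 within the lines and below 0 between them. A crossed block, chosen after seeing the data, gave 1921. Shared calls had the same direction in each setting compared.

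Of 153 called genes checked, 85 kept call and direction under all settings run and 68 lost the call in at least 1. Of 13 genes not called, Fgf5, Bub1 and Cox4i1 were called in at least 1. Differences that turned sign were uncalled and near 0. Cdx2 was -0.00229 with quantile normalization, -0.0202 with centred arrays and -0.161 to 0.169 with an array left out (negative without the second WT -dox array, at -0.158, or the second F266A +dox array). Esrrb was 0.00567 on its brightest probe set. With an array left out Gata6 was -0.142 to 0.125 (0.00828 without the first WT -dox array), Mixl1 -0.084 to 0.000165 and Nanog -0.0272 to 0.0831. The cause was not tested. Signal near the minimum limits Cdx2, Gata6, Mixl1 and Fgf5.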

Other observations

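Uty and Eif2s3y stood among the genes that differed by line and were picked after their values were seen. The line part was called in 39.4% of all genes, and other genes of the Y chromosome are not described here. The other probe sets of Uty did not exceed the minimum. Uty, a gene of the Y chromosome, was 4.65 and 5.0 in the WT -dox arrays and 6.04 and 6.21 with induced F266A. In the other arrays it was 4.72 and 4.95 (WT +dox) and 6.66 and 5.90 (F266A -dox), so all 4 WT values were under the minimum of 5.64. Eif2s3y, a translation initiation factor gene of the same chromosome, was 7.14 and 7.34 in the WT -dox arrays against 8.0 and 7.79 with induced F266A, and 7.20 and 7.29 (WT +dox) and 8.44 and 8.36 (F266A -dox) elsewhere. The 4 arrays of the F266A line were above the 4 of the WT line in both genes. The difference of F266A +dox minus WT -dox was 1.30 ± 0.21 for Uty and 0.66 ± 0.10 for Eif2s3y (limma adjusted p = 0.00431 and 0.00226).

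A few genes of signalling outside the lists were also at least 2-fold higher and were picked after their values were seen. Tgfb2, a TGF-beta ligand, was 5.07 and 5.21 in WT -dox and 6.17 and 6.36 in F266A +dox (1.13 ± 0.09). Ets1, a transcription factor, was 5.41 and 5.71 against 7.14 and 7.02 (1.52 ± 0.12), and Amot, an angiomotin of the Hippo pathway, was 7.48 and 7.78 against 8.91 and 8.88 (1.26 ± 0.10). Tgfb2 was under the minimum in both WT -dox arrays, and the WT -dox mean of Ets1, 5.56, was under it as well.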
